A study of Mus musculus with 8 samples.

Results

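Imprinted genes are transcribed mainly from the copy inherited from one parent, because DNA methylation laid down in the egg or sperm silences or opens control elements on one chromosome. They lie in clusters in which paternally and maternally expressed genes share a control region, and many promote or restrain growth of the embryo and placenta. In embryos several of them, among them H19, Dlk1, Mest and Plagl1, are abundant in mesenchyme and much reduced after birth, while others, such as Nnat and Snrpn, are best known from neural tissue. Their level was described here in mesonephric tubules, the epithelial ducts of the transient embryonic kidney. Members were 42 imprinted genes listed by symbol, of which 41 had a probe that passed the filter on dim probes, out of 33619 genes and unnamed features measured. Of the 41 genes, 23 are expressed from the paternal and 16 from the maternal copy. Tspan32, Dhcr7, Ascl2 and Dcn are counted as maternally expressed, but their imprint is limited to the placenta. Gnas and Inpp5f make transcripts whose imprint depends on the isoform and were kept apart. Rian, a maternally expressed non-coding RNA, had no probe matched by name and no value is given. Other than for Usp29, Nap1l5 and Rasgrf1, the probe of each gene was well above background on all 8 arrays.

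The study set 3 tubule samples of embryos lacking p21 (p21-/-), a cell cycle inhibitor encoded by Cdkn1a, against 5 samples of wild-type embryos, all of strain C57/BL6, to learn about senescence in the embryo. Tissue was microdissected from frozen sections stained with toluidine blue, and its total RNA was hybridised to Agilent arrays with 1 colour. The labels give neither the stage nor which embryo a sample came from, so p-values measure the spread between these samples, which may be technical. Values are log2 of the processed signal minus the 75th percentile of each array, differences are labelled p21-null minus wild type, and replicates are numbered as in the labels. An array reads the sum of both parental copies, so neither loss of imprinting nor allele use could be seen. In bulk tissue, fewer cells of a type and less RNA per cell cannot be told apart.

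Cdkn1a itself did not separate the labelled groups. Its probe read 2.11, 0.96 and 1.40 on the labelled p21-null arrays 1 to 3, against 2.49, 2.52, 0.44, 1.85 and 1.11 on the wild-type arrays 1 to 5, a difference of -0.19 ± 0.54 (SE, two-sided exact permutation p = 0.768, where 56 splits allow no p below 0.0179), and whether the probe lies in the deleted part is not given. The genotype is therefore written as labelled throughout. On each array 82.3% to 89.3% of the probes exceeded background. Slide 1 held labelled p21-null array 1 and wild-type arrays 1, 2 and 3, slide 2 held labelled p21-null array 2 and wild-type array 4, and slide 3 held labelled p21-null array 3 and wild-type array 5. Tubule markers were present, with the mean of 22 epithelial markers between -1.86 and -1.0 on the labelled p21-null arrays and between -2.13 and 0.54 on the wild-type arrays. Ret, a receptor of the duct epithelium, was not well above background on any labelled p21-null array. Other tissues were present too. The mean of 21 erythroid markers lay between 2.75 and 3.55 on the labelled p21-null arrays and between 0.28 and 2.53 on the wild-type arrays, and that of 19 liver markers between 2.39 and 3.88 on the labelled p21-null arrays and between -1.01 and 2.64 on the wild-type arrays.

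Promoter sequences are shown for 4 paternally expressed genes whose levels followed different tissue markers, as described further on. RefSeq (build GRCm38.p6) gives windows from 250 bases before to 50 bases after a transcript start. Peg3, a zinc finger protein, and Usp29, a deubiquitinase relative, are read in opposite directions from one start region. Their windows share 263 bases, Peg3 on the minus strand at chr7:6730370-6730669 and Usp29 on the plus strand at chr7:6730333-6730632. Mest, a hydrolase-like protein of mesoderm, has 3 windows listed, and the one shown is on the plus strand at chr6:30737800-30738099. Nnat, a small membrane protein of neural tissue, starts on the plus strand in the window chr2:157559828-157560127. Capitals mark each CpG, the site of DNA methylation, and the 8-base motif GGGGCCCC, which is its own reverse complement and so lies on both strands.
Peg3: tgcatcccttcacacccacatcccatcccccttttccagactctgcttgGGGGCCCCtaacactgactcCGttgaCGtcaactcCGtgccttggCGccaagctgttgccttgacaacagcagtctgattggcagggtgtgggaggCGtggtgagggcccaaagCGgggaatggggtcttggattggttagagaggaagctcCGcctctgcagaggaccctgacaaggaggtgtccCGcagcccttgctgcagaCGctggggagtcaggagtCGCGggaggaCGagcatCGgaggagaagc
Usp29: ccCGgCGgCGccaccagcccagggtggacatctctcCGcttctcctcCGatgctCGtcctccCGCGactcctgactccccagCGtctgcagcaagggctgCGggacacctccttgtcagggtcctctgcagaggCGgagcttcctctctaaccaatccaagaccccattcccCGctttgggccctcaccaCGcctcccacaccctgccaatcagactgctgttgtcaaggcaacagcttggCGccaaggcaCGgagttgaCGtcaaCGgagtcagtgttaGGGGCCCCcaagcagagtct
Mest: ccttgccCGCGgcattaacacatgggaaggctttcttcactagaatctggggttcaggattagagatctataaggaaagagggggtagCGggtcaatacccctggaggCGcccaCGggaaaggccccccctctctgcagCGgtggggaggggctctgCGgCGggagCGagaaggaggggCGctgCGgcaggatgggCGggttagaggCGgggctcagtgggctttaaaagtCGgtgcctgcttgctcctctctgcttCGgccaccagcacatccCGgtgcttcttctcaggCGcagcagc
Nnat: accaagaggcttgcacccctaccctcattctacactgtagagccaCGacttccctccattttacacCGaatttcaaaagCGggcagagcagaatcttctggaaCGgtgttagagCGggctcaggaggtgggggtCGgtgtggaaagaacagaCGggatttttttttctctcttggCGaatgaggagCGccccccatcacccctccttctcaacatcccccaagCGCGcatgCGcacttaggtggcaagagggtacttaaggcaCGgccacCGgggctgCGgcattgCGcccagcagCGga
The Peg3 window held 13 CpGs and the windows shown for Usp29, Mest and Nnat held 17 each. Another Mest window, upstream at chr6:30733256-30733555, held 8. Over the 57 windows of the 37 genes with an entry, the median was 15 CpGs, against 7 over all 32851 windows of the table. GGGGCCCC was found in 5 of the 57 windows, those of Begain, Peg3, Usp29, Ppp1r9a and Rasgrf1 (8.77%), and in 1.08% of all windows. The Peg3 and Usp29 windows hold the same copy of it, since they overlap.

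Levels of the imprinted genes spread widely among samples of one label. Wild-type arrays 2 and 5 held the highest value for 20 of the 41 genes, against 22.6% of all genes, and wild-type arrays 3 and 4 for a further 14, against 27.4% of all genes. The 3 labelled p21-null arrays together held the highest value for 6, against 33.2% of all genes. H19 averaged 6.89 ± 0.31 on the labelled p21-null arrays and 6.50 ± 0.59 on the wild-type arrays (SD, n = 3 and 5). H13, a signal peptide peptidase, had a range of 0.44 over the arrays by its brightest probe. Snrpn had one of 4.24 and Zim1 one of 5.26, and all 3 genes were well above background on every array. The dimmest H13 probe read -2.70, -2.16 and -3.46 on the labelled p21-null arrays, against -1.33, -1.70, -1.70, -1.56 and -1.61 on the wild-type arrays. Its difference was -1.195, so how steady H13 looks depends on the probe.

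**Figure D1:**
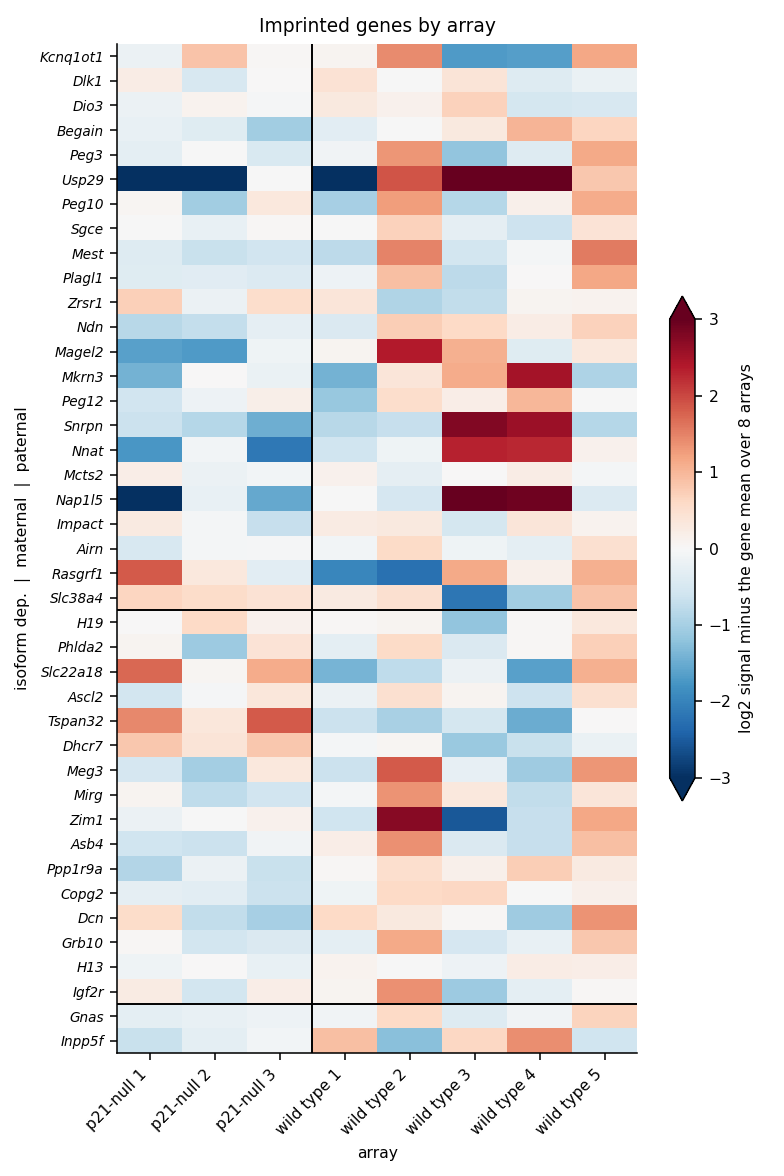
Heat map of the 41 imprinted genes (rows, grouped by expressed allele) on the 3 labelled p21-null arrays and the 5 wild-type arrays (columns), coloured by the log2 signal minus the mean of the gene over the 8 arrays, with colours ending at 3 and -3. Wild-type arrays 2 and 5 share high values for Mest, Peg3, Peg10, Meg3 and Grb10, and wild-type arrays 3 and 4 for Snrpn, Nnat, Nap1l5 and Usp29.

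No imprinted gene differed between the labelled genotypes after adjustment over all genes, but most lay on the lower side in labelled p21-null tubules. The difference was below 0 for 33 of 41 genes (80.5%), against 52.3% of all genes, and its median was -0.35, against -0.03 over all genes. Paternally expressed genes were lower in 19 of 23 cases with a median of -0.36, and maternally expressed genes in 12 of 16 with a median of -0.25, so both classes leaned the same way. At an unadjusted p under 0.05, 3 genes were higher (Tspan32, Dhcr7 and Slc22a18, all classed as maternally expressed) and 6 were lower (Magel2, Ndn, Nnat, Nap1l5 and Begain, paternally expressed, and Ppp1r9a, maternally expressed). Of the higher genes, Tspan32 and Dhcr7 have an imprint limited to the placenta.

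By limma with Benjamini-Hochberg adjustment, 0 members passed an adjusted p under 0.05, as did 0% of all genes, and the smallest adjusted p of a member was 0.283. The 9 genes at an unadjusted p under 0.05 stood against 10.1% of all genes, the 3 higher ones against 6.2% and the 6 lower ones against 3.91%. The looser call, a 2-fold or larger difference whose unadjusted p was under 0.01, took 1 member, Tspan32 (2.44%), and 2.95% of all genes. Groups did not overlap for 2 genes on the higher side, Tspan32 and Dhcr7, against 4.43% of all genes, and for 2 on the lower side, Ppp1r9a and Copg2, against 2.47%. Within slides the difference was below 0 for 28, 25 and 31 members on slides 1, 2 and 3 (68.3%, 61.0% and 75.6%), against 57.9%, 43.9% and 48.6% of all genes. Of the members 15 were lower on all 3 slides and 3 were higher on all of them (Slc22a18, Tspan32 and Dhcr7), against 15.7% of all genes in each direction. With the mesenchyme marker mean as a covariate 27 of 41 members were below 0 with a median of -0.08, against 17255 of all 33619 genes with a median of -0.02. With the liver, neural or erythroid marker mean as a covariate, 0 members reached an unadjusted p under 0.05, against 2.17%, 6.2% and 2.33% of all genes. The erythroid mean did not overlap between the groups, and the liver mean did so only for labelled p21-null array 2 and wild-type array 5. On the neural mean only wild-type array 1 lay within the labelled p21-null range. Each mean thus largely follows the group, so these fits cannot tell the group from the marker mean.

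**Figure D2:**
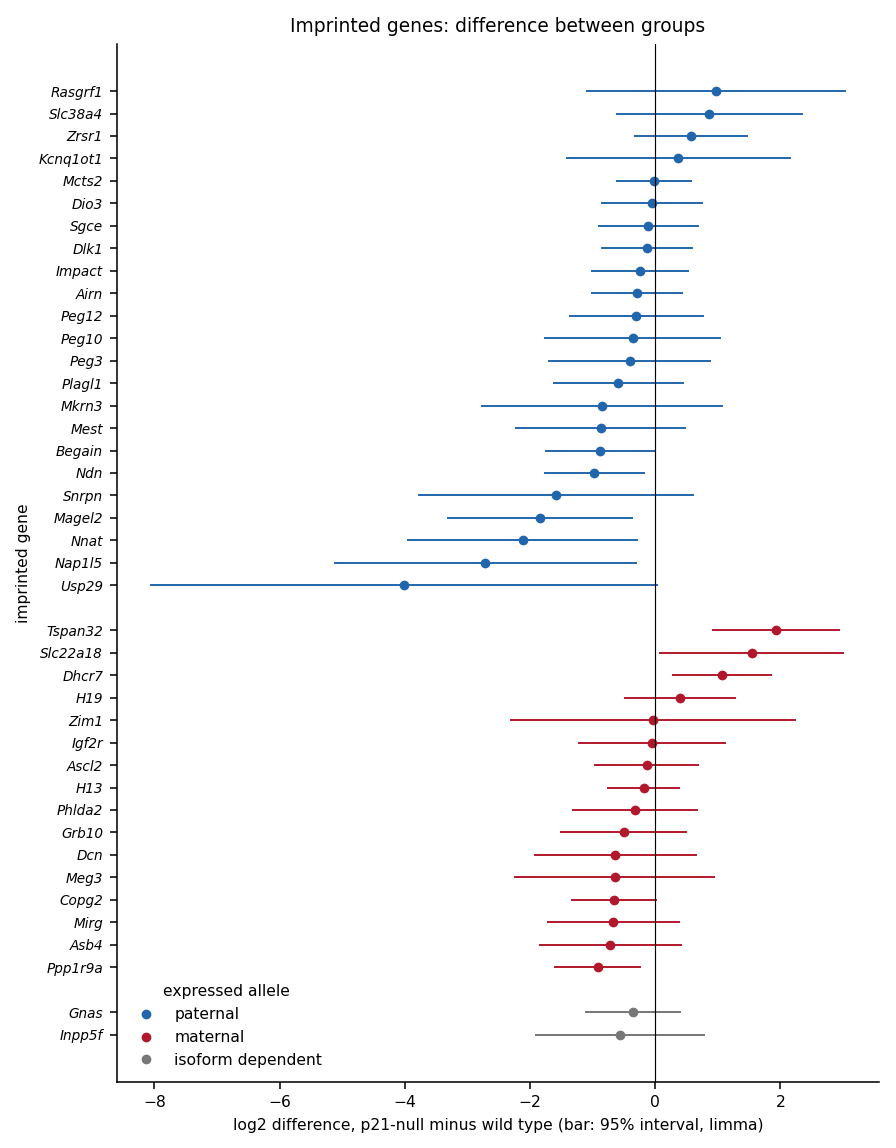
Difference in log2 signal, labelled p21-null minus wild type, for the 41 imprinted genes with 95% intervals from limma, coloured by expressed allele and sorted within each class. Points run between -4.01 for Usp29 and 1.93 for Tspan32, 33 of them lie below 0, and none passed an adjusted p under 0.05.

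The mean over the 23 paternally expressed genes was -0.36, -0.20 and -0.16 on the labelled p21-null arrays 1 to 3, against -0.28, 0.61, 0.59, 0.72 and 0.56 on the wild-type arrays 1 to 5. It was high on wild-type arrays 2 to 5 and low on wild-type array 1, which lay among the labelled p21-null arrays. This mean includes Usp29, Nap1l5 and Rasgrf1, which were not well above background on every array. Usp29 read -8.36 and -7.50 on labelled p21-null arrays 1 and 2 and -7.88 on wild-type array 1. The low class means there rest partly on such values. The mean over the 16 maternally expressed genes was 1.13, 0.74 and 1.12 on the labelled p21-null arrays, against 0.82, 1.68, 0.57, 0.51 and 1.58 on the wild-type arrays. Only wild-type arrays 2 and 5 stood above the others there. The gap between the medians of the classes, paternal minus maternal, was -0.10, and it was 0.06 when the 4 genes whose imprint is limited to the placenta (Tspan32, Dhcr7, Ascl2 and Dcn) were left out.

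On distal chromosome 7, next to Igf2 and Kcnq1ot1, lay all 3 of the 8 higher genes that had an unadjusted p under 0.05. Tspan32, a tetraspanin of blood cells, read 2.90, 1.81 and 3.31 on the labelled p21-null arrays, against 0.82, 0.50, 0.94, -0.02 and 1.48 on the wild-type arrays. By this brightest probe all labelled p21-null arrays lay above all wild-type arrays, with a difference of 1.93 ± 0.45 (SE, limma, unadjusted p = 0.0019, adjusted p = 0.283) and within-slide differences of 2.15, 1.83 and 1.83. The second probe differed by 2.20, but on the third and dimmest the groups overlapped and the difference was 0.05. By the mean of its 3 probes the difference of Tspan32 was 1.39. With the group as a term, its slope on the erythroid marker mean was 0.64 ± 0.26 per log2 unit (SE, limma, unadjusted p = 0.0400, adjusted p = 0.9998), and it was the 1 member at an unadjusted p under 0.05 for this mean (2.44%), against 3.52% of all genes. That share lies below the share of all genes. With the erythroid or the liver mean as a covariate the difference of Tspan32 was 0.75 or 0.93, but both means largely follow the group.

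Dhcr7, the last enzyme of cholesterol synthesis, read 1.37, 0.94 and 1.36 on the labelled p21-null arrays, against 0.50, 0.62, -0.56, -0.11 and 0.37 on the wild-type arrays. The groups did not overlap, and the difference was 1.06 ± 0.35 (SE, limma, adjusted p = 0.361), with 1.19, 1.06 and 0.99 within slides. Slc22a18, an organic cation transporter relative, read 1.09, -0.57 and 0.49 on the labelled p21-null arrays, against -2.01, -1.38, -0.81, -2.26 and 0.44 on the wild-type arrays. Here wild-type array 5 lay among the labelled p21-null arrays. The difference was 1.54 ± 0.64 (SE, limma, adjusted p = 0.466), but 2.49, 1.69 and 0.05 within slides. With the liver or the erythroid marker mean as a covariate the difference of Slc22a18 was -0.08 or -0.0049, while that of Dhcr7 was 1.13 or 0.99. Both marker means largely follow the group, so these values cannot tell the group from the marker mean. The erythroid and liver means correlated at 0.97 over the 8 arrays and the erythroid and macrophage means at 0.85, so these lists cannot be told apart here. Of 19 macrophage markers 15 were higher, 11 at an unadjusted p under 0.05, and their mean lay between 0.61 and 1.28 on the labelled p21-null arrays and between -0.68 and 0.81 on the wild-type arrays. The part of macrophages in these differences was not tested.

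**Figure D3:**
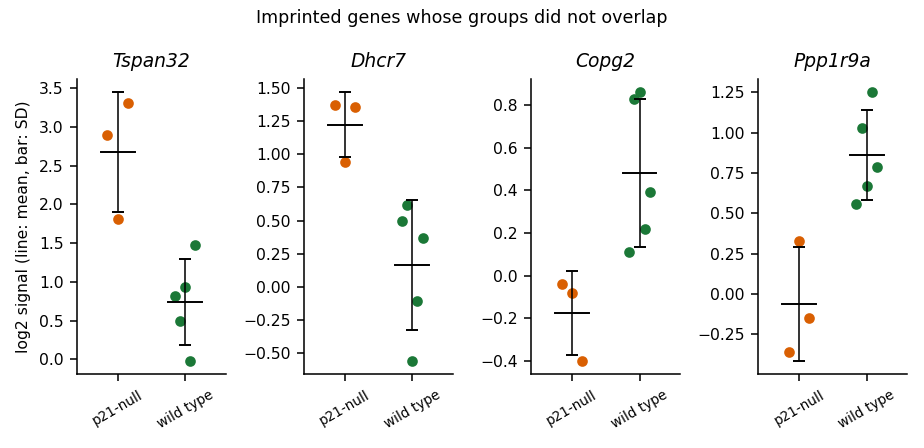
Log2 signal of the 4 imprinted genes whose groups did not overlap, with 3 labelled p21-null arrays on the left and 5 wild-type arrays on the right of each panel, lines for means and bars for SD. By the brightest probe of each gene, Tspan32 and Dhcr7 lay higher and Copg2 and Ppp1r9a lower on every labelled p21-null array than on any wild-type array.

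The other genes of that region kept overlapping groups. H19, a growth-restraining non-coding RNA, read 6.65, 7.24 and 6.78 on the labelled p21-null arrays, against 6.68, 6.72, 5.46, 6.67 and 6.95 on the wild-type arrays, low only on wild-type array 3. Its difference was 0.39 ± 0.39 (SE, limma, adjusted p = 0.814), and of its 5 probes the fourth in brightness differed by -0.005, opposite in sign to the rest. Kcnq1ot1, the paternally expressed RNA that silences its neighbours in cis, read 0.23, 1.26 and 0.43 on the labelled p21-null arrays, against 0.49, 1.82, -1.29, -1.25 and 1.56 on the wild-type arrays. It was high on wild-type arrays 2 and 5 and low on 3 and 4. Its difference was 0.37, and -0.15 by its second probe. Phlda2, a growth restrainer of the placenta, and Ascl2, a trophoblast transcription factor, were dim and differed by -0.32 and -0.13.

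In the Dlk1-Dio3 cluster on chromosome 12, the brightest probes of the 5 measured genes all had differences below 0, none past the adjusted threshold, and for Dlk1 the sign depended on the probe. Begain, a synaptic protein and the one at an unadjusted p under 0.05, read -1.76, -1.91 and -2.58 on the labelled p21-null arrays, against -1.86, -1.54, -1.24, -0.51 and -0.89 on the wild-type arrays, low only on wild-type array 1 of that group. Its difference was -0.88 ± 0.38 (SE, limma, adjusted p = 0.486), and -0.21, -1.40 and -1.70 within slides. Meg3, a maternally expressed non-coding RNA with growth-restraining activity, read 1.73, 1.20 and 2.53 on the labelled p21-null arrays, against 1.57, 4.06, 1.99, 1.16 and 3.56 on the wild-type arrays. Wild-type arrays 2 and 5 stood apart and the other arrays overlapped, which gave a difference of -0.65 ± 0.70 (SE, limma, adjusted p = 0.837). Mirg, a microRNA host of the same strand, read 0.31, -0.54 and -0.35 on the labelled p21-null arrays, against 0.17, 1.57, 0.55, -0.51 and 0.58 on the wild-type arrays. It was highest on wild-type array 2 and its groups overlapped, with a difference of -0.67. Dio3, which inactivates thyroid hormone, differed by -0.05.

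Dlk1, a paternally expressed Notch-like growth regulator, gave 2 patterns. Its brighter probe read 3.71, 2.99 and 3.49 on the labelled p21-null arrays, against 3.92, 3.47, 3.86, 3.1 and 3.27 on the wild-type arrays. Its second probe read 4.24, 3.32 and 3.93 on the labelled p21-null arrays, against 2.08, 4.01, 1.87, 2.36 and 5.30 on the wild-type arrays. The first was nearly even and the second swung with the high wild-type arrays 2 and 5, and their differences were -0.13 and 0.71. Over the 8 arrays the probes correlated at -0.33, the lowest value among 33 pairs of probes of one gene (median 0.86), so a direction for Dlk1 could not be given. In 19 of 22 genes with several probes all probes had the same sign, with Dlk1, H19 and Kcnq1ot1 as the exceptions.

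The Prader-Willi region of chromosome 7 (Ndn, Magel2, Mkrn3, Peg12 and Snrpn, all paternally expressed) was also lower at all 5 genes, with a median of -0.97 and 0 adjusted calls. Magel2, a ubiquitin ligase cofactor of hypothalamus and mesenchyme, read -1.12, -1.18 and 0.39 on the labelled p21-null arrays, against 0.59, 2.88, 1.57, 0.15 and 0.82 on the wild-type arrays. Labelled p21-null array 3 overlapped wild-type array 4. The difference was -1.84 ± 0.65 (SE, limma, adjusted p = 0.389), and -2.81, -1.33 and -0.43 within slides.

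Ndn, a growth-suppressing relative of Magel2, read -0.49, -0.38 and 0.06 on the labelled p21-null arrays, against -0.10, 1.08, 0.93, 0.56 and 1.03 on the wild-type arrays. Only wild-type array 1 fell into the labelled p21-null range, and the difference of -0.97 ± 0.35 (SE, limma, adjusted p = 0.399) was -1.13, -0.94 and -0.97 within slides. Ndn and Magel2, which are neighbours, correlated over the 8 arrays at r = 0.85 (exact permutation p = 0.0044, 0.0262 adjusted over 12 pairs) and rho = 0.86 (exact permutation p = 0.0107, adjusted 0.0923). Without labelled p21-null array 1 and wild-type array 2 r was 0.76, and on deviations from the group means it was 0.66.

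Snrpn, which encodes a splicing protein of neurons, behaved otherwise. It read -1.08, -1.29 and -1.88 on the labelled p21-null arrays, against -1.26, -1.11, 2.36, 2.14 and -1.29 on the wild-type arrays. Wild-type arrays 3 and 4 stood more than 3 log2 units above all others, which overlapped. The difference was -1.58 ± 0.97 (SE, limma, adjusted p = 0.653), and it was -0.20 without those 2 arrays. Mkrn3 and Peg12 differed by -0.85 and -0.30.

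Further paternally expressed genes outside that region stood high on the same wild-type arrays or were near background. Nnat read 1.69, 3.36 and 1.29 on the labelled p21-null arrays, against 2.85, 3.31, 5.76, 5.70 and 3.56 on the wild-type arrays. It was high on wild-type arrays 3 and 4, while labelled p21-null array 2 lay among the rest of wild type. The difference was -2.12 ± 0.81 (SE, limma, adjusted p = 0.419), -2.28, -2.34 and -2.26 within slides, and -1.12 without wild-type arrays 3 and 4.

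Nap1l5, a nucleosome assembly relative, read -6.08, -2.96 and -4.27 on the labelled p21-null arrays, against -2.75, -3.24, 0.33, 0.18 and -3.16 on the wild-type arrays. It was high on the same pair and was well above background on 2 of 3 labelled p21-null arrays and 5 of 5 wild-type arrays, with a difference of -2.71 ± 1.07 (SE, limma, adjusted p = 0.436). Usp29 read -8.36, -7.50 and -4.20 on the labelled p21-null arrays, against -7.88, -2.30, 0.26, -0.07 and -3.38 on the wild-type arrays. It was well above background on 1 of 3 labelled p21-null arrays and 4 of 5 wild-type arrays, highest on wild-type arrays 3 and 4, and its difference was -4.01 ± 1.79 (SE, limma, adjusted p = 0.498). That size rests partly on values not well above background. Rasgrf1, a Ras exchange factor, was well above background on 1 of 3 labelled p21-null arrays and 3 of 5 wild-type arrays.

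Nnat, Snrpn, Nap1l5 and Usp29 followed the neural marker mean, which read -3.14, -2.48 and -3.25 on the labelled p21-null arrays, against -2.82, -1.59, -0.67, -0.72 and -1.46 on the wild-type arrays. Of the 20 neural markers, 16 were well above background on all arrays of each group. With the group as a term, 6 of 41 members had a slope on this mean at an unadjusted p under 0.05 (14.6%), against 8.01% of all genes. All 6 were paternally expressed and positive, with slopes per log2 unit of 1.54 ± 0.33 for Nnat, 3.09 ± 0.89 for Usp29, 1.45 ± 0.42 for Mkrn3, 1.61 ± 0.51 for Snrpn, 1.65 ± 0.60 for Nap1l5 and 0.69 ± 0.28 for Peg12 (SE, limma, smallest adjusted p = 0.235). Begain, Magel2, Ppp1r9a and Rasgrf1 were not among those 6. Over all 41 members the slope on the neural mean was above 0 for 16 and below 0 for 25. Its median was -0.10, against -0.09 over all genes. Among the 6 arrays other than wild-type arrays 3 and 4, the correlation with this mean was 0.85 for Nnat, 0.66 for Usp29, 0.55 for Nap1l5, 0.48 for Peg12, 0.42 for Snrpn and 0.35 for Mkrn3. The slopes used the brightest probe of each gene. For Mkrn3 and Peg12 the second probe correlated with the brightest at only 0.21 and 0.51. On wild-type arrays 3 and 4 that probe read -1.33 and -4.01 for Mkrn3, and -1.19 and -1.19 for Peg12, so neither was high on both arrays. The neural list was set against the members after the data were seen. With the neural marker mean as a covariate the differences of Nnat, Usp29 and Snrpn became 0.20, 0.64 and 0.84, opposite in sign to those without it. The neural mean largely follows the group, so this fit cannot tell the group from the marker mean.

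**Figure D4:**
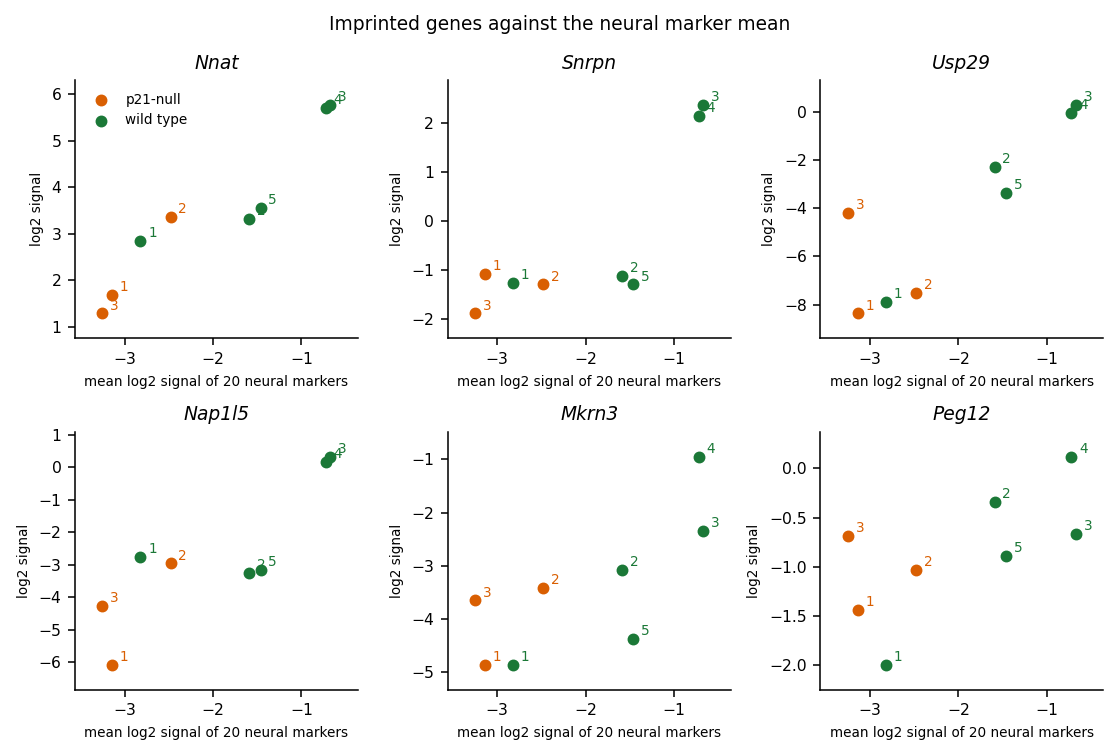
Log2 signal of 6 paternally expressed genes against the mean log2 signal of 20 neural markers, 1 point per array with its replicate number, labelled p21-null in orange and wild type in green. Wild-type arrays 3 and 4, with marker means of -0.67 and -0.72, held the highest values of Nnat, Snrpn, Usp29 and Nap1l5.

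In the Peg3 cluster, the values of Peg3 and Usp29, which share one start region, did not share a pattern. Peg3, whose promoter overlaps that of Usp29, read 2.16, 2.45 and 2.01 on the labelled p21-null arrays, against 2.36, 3.78, 1.28, 2.08 and 3.59 on the wild-type arrays. It was high on wild-type arrays 2 and 5 and lowest on wild-type array 3, where Usp29 was highest, and its difference was -0.41 ± 0.57 (SE, limma, adjusted p = 0.884). Over the 8 arrays Peg3 and Usp29 correlated at r = -0.09 (exact permutation p = 0.818) and rho = -0.24 (exact permutation p = 0.582), and r was -0.75 without wild-type arrays 2 and 5. Usp29 was well above background on only 1 of 3 labelled p21-null arrays and 4 of 5 wild-type arrays. These correlations and the contrast with Peg3 therefore rest partly on values that are not well measured. Zim1, the maternally expressed zinc finger gene next to Peg3, followed Peg3 instead, at r = 0.93 (exact permutation p = 0.0016, 0.0187 adjusted over 12 pairs) and rho = 0.74 (exact permutation p = 0.0458, adjusted 0.183), with r = 0.86 without wild-type arrays 2 and 5. Of the other 9 pairs of clustered or network genes, none had an adjusted p under 0.05 for r.

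The same high wild-type arrays recurred in a group of growth-related genes. Mest read 2.58, 2.28 and 2.38 on the labelled p21-null arrays, against 2.17, 4.44, 2.40, 2.91 and 4.51 on the wild-type arrays, with a difference of -0.87 ± 0.60 (SE, limma, adjusted p = 0.702). Plagl1, a zinc finger regulator of other imprinted genes, read 4.74, 4.76 and 4.68 on the labelled p21-null arrays, against 4.95, 5.99, 4.30, 5.10 and 6.25 on the wild-type arrays, with a difference of -0.59 ± 0.45 (SE, limma, adjusted p = 0.748). In both genes wild-type arrays 2 and 5 stood above all others, and the labelled p21-null arrays lay close together inside the wild-type range.

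Peg10, a retrotransposon-derived gene of the placenta, read 1.02, -0.07 and 1.29 on the labelled p21-null arrays, against -0.03, 2.23, 0.12, 1.11 and 2.08 on the wild-type arrays. Grb10, a maternally expressed inhibitor of insulin and growth factor receptors, read 2.40, 1.83 and 1.94 on the labelled p21-null arrays, against 2.09, 3.50, 1.87, 2.16 and 3.19 on the wild-type arrays. Igf2r, the receptor that clears IGF2, read 2.92, 2.11 and 2.88 on the labelled p21-null arrays, against 2.75, 4.03, 1.58, 2.38 and 2.71 on the wild-type arrays. The first pair of genes was again highest on wild-type arrays 2 and 5 and Igf2r on wild-type array 2 alone, with differences of -0.36, -0.51 and -0.05 and overlapping groups.

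The mesenchyme marker mean, over 25 genes such as collagens and mesenchymal transcription factors, read 0.65, 0.37 and 0.21 on the labelled p21-null arrays, against 0.23, 1.71, 0.11, 1.09 and 1.88 on the wild-type arrays. All 25 markers were well above background on all labelled p21-null arrays and 24 on all wild-type arrays. With the group as a term, 7 of 41 members had a slope on it at an unadjusted p under 0.05 (17.1%), against 7.25% of all genes, and 6 of the 7 were positive, against 4.77% of all genes. Those slopes per log2 unit were 1.29 ± 0.25 for Mest, 2.003 ± 0.51 for Zim1, 1.23 ± 0.32 for Peg10, 0.89 ± 0.24 for Plagl1, 1.10 ± 0.31 for Peg3 and 0.82 ± 0.25 for Grb10 (SE, limma, smallest adjusted p = 0.360). Inpp5f, a phosphoinositide phosphatase, had the negative one, -0.96 ± 0.39. The slope was above 0 for all 16 maternally expressed genes and for 15 of the 23 paternally expressed genes, with medians of 0.44 and 0.29, against -0.01 over all genes.

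These slopes rested largely on wild-type arrays 2 and 5, which lay apart from the other 6. Among those 6 arrays the correlation with the mesenchyme mean was 0.89 for Mest, 0.70 for Plagl1, 0.61 for Grb10, 0.51 for Peg10, 0.29 for Peg3 and 0.26 for Zim1. Skeletal muscle markers were high on the same 2 arrays. Their mean over 14 genes read -1.15, -2.05 and -0.36 on the labelled p21-null arrays, against -2.31, 1.45, -2.95, -2.50 and 0.74 on the wild-type arrays. The slope on this mean, looked at after the data were seen, had an unadjusted p under 0.05 for 17 of 41 members (41.5%), against 9.3% of all genes. Of all genes 65 passed an adjusted p under 0.05 on it (0.193%), none of them a member. Meg3 had the smallest p, with a slope of 0.61 ± 0.11 (SE, limma, adjusted p = 0.103). With both means in one fit, 2 of 41 members had a mesenchyme slope at an unadjusted p under 0.05. These were Begain at 1.17 and Magel2 at -1.52 (limma, adjusted p = 0.879 for each). The share of all genes in that fit is not given here, so this count cannot be weighed. Mest had a slope of 0.82 ± 0.39 (SE) in it. On the tubule epithelium mean, too, 7 of 41 members had a slope at an unadjusted p under 0.05 (17.1%), against 5.31% of all genes. Of these 6 were negative, among them Mest, Peg10 and Meg3, and 1, that of Inpp5f, was positive, and 28 of the 41 slopes were below 0. Over the 8 arrays the tubule mean correlated at -0.34 with the mesenchyme mean and at -0.70 with the muscle mean. The shares of tubule, mesenchyme and muscle in these patterns cannot be told apart in 8 arrays.

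**Figure D5:**
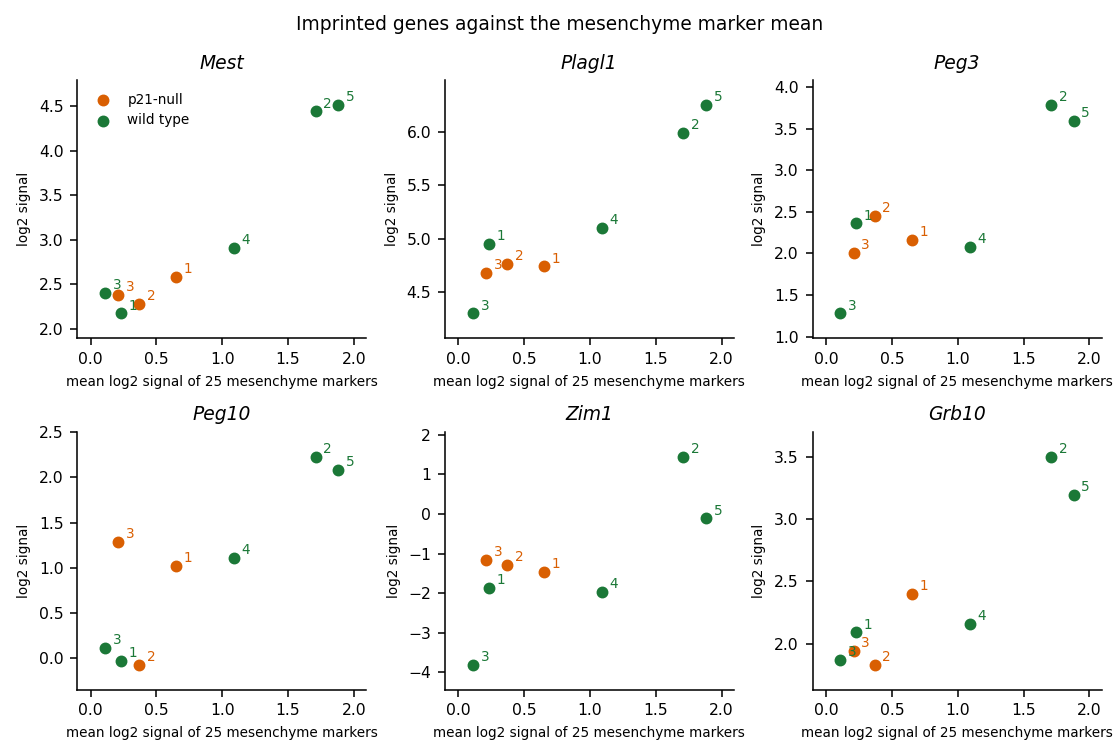
Log2 signal of 6 imprinted genes against the mean log2 signal of 25 mesenchyme markers, 1 point per array with its replicate number, labelled p21-null in orange and wild type in green. Wild-type arrays 2 and 5, with marker means of 1.71 and 1.88, stand apart in all 6 panels. Among the other 6 arrays Mest correlated with the marker mean at 0.89. Of those, wild-type array 4 was highest on both, at 2.91 for Mest and 1.09 for the marker mean.

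The genes on the lower side whose groups did not overlap were both maternally expressed. Ppp1r9a, an actin-binding protein of neurons next to Peg10, read -0.36, 0.33 and -0.15 on the labelled p21-null arrays, against 0.56, 1.03, 0.67, 1.25 and 0.79 on the wild-type arrays. The difference of -0.92 ± 0.30 (SE, limma, adjusted p = 0.360) was -1.11, -0.92 and -0.94 within slides. On the second and dimmer probe of Ppp1r9a the difference was -0.63 and the groups overlapped. Copg2, a coat protein subunit next to Mest, read -0.04, -0.08 and -0.40 on the labelled p21-null arrays, against 0.11, 0.83, 0.86, 0.22 and 0.39 on the wild-type arrays. Wild-type array 1 came closest to the labelled p21-null arrays, with a difference of -0.66 ± 0.30 (SE, limma, adjusted p = 0.509).

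Asb4, a ubiquitin ligase adaptor, differed by -0.71. Gnas, the stimulatory G protein subunit, read 4.09, 4.16 and 4.22 on the labelled p21-null arrays, against 4.28, 4.98, 3.98, 4.27 and 5.04 on the wild-type arrays, high on wild-type arrays 2 and 5. Inpp5f read -2.06, -1.68 and -1.48 on the labelled p21-null arrays, against -0.49, -2.64, -0.77, 0.00 and -1.99 on the wild-type arrays, low on the same 2 arrays. The differences of Gnas and Inpp5f were -0.35 and -0.57, and their groups overlapped. Sgce, a sarcoglycan, Airn, the RNA that silences Igf2r, Impact, a translation regulator, and Mcts2 differed by -0.11, -0.29, -0.25 and -0.02. Dcn, a matrix proteoglycan, and H13, by its brightest probe, differed by -0.64 and -0.19. Zrsr1, a splicing factor relative, Slc38a4, an amino acid transporter, and Rasgrf1 lay on the higher side by 0.57, 0.87 and 0.97. The intervals of all these genes included 0, apart from that of Ppp1r9a.

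A further 39 imprinted genes outside the list leaned lower too, 26 lower against 13 higher, with a median of -0.27. The 4 of them at an unadjusted p under 0.05 were higher (10.3%), a share close to the 10.1% of all genes called in either direction and above the 6.2% called higher. Ampd3, an AMP deaminase of red cells, had the smallest p and read -0.41, -0.94 and 0.01 on the labelled p21-null arrays, against -2.74, -3.90, -2.0, -3.71 and -0.92 on the wild-type arrays, with a difference of 2.21 ± 0.67 (SE, limma, adjusted p = 0.329). Labelled p21-null array 2 overlapped wild-type array 5. Jade1, Pon2 and Tfpi2 differed by 0.72, 1.004 and 2.28. Igf2, the growth factor whose imprint is reciprocal to that of H19, averaged 4.02 ± 0.19 on the labelled p21-null arrays and 4.11 ± 0.88 on the wild-type arrays, and Cdkn1c, a relative of p21, averaged 3.61 ± 0.30 on the labelled p21-null arrays and 4.05 ± 0.69 on the wild-type arrays (SD, n = 3 and 5). Among 21 genes that set or keep imprints, 10 were higher and 11 lower, and none had an adjusted p under 0.05 by limma. Dnmt3b, a DNA methyltransferase, Dppa3, a protector of maternal methylation, Zfp57, the zinc finger protein that holds imprints, and Ehmt2, a histone methyltransferase, differed by 1.003, 1.202, -1.70 and -0.60.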

How the data were processed

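The members, marker lists and tests were chosen with earlier results of these data known. The deposited scanner files hold spot intensity on a linear scale from Feature Extraction 10.7.3.1, per the file headers, corrected for background by that software, with nothing scaled between arrays and no replicates pooled. A deposited table holds log2 values per probe, for which the submitters' processing notes name limma; it was an alternative only.

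Control spots and outlier spots were left out, spots of 1 probe were averaged, and the 75th percentile of each array was subtracted from its log2 values. Probes were named by matching accessions to the RefSeq table of GRCm38.p6 (26056 of 55681 probes had a symbol; H19 is named in the files themselves). Probes well above background on at least 3 of 8 arrays were kept (50046), and the brightest probe stood for a gene. The fits used limma 3.58.1 (R 4.3.3) and Benjamini-Hochberg adjustment over 33619 genes and features. Slopes on a marker mean were fitted with the group as a term. Correlations were tested by exact permutation (scipy 1.17.1). The number of arrays limits the precision. On simulated data for the group comparison with 33619 genes, changes of 1, 2, 3 and 4 on the log2 scale were called in 0%, 26%, 72% and 68% of 50 genes each. The simulated noise was drawn separately for each gene, whereas tissue markers varied together on these arrays. These rates may therefore not carry over to the real data. Genes given in every array were the 6 of smallest p in each parental class, 12 well-known members, and both isoform-dependent genes. Alternatives were other scalings, background corrections, filters, probe rules, blocks, moderation, covariates and leaving out arrays.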

Additional observations from a re-analysis of the deposited data

Results flagged for a closer look

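Among the 41 genes, 2 had a wild-type array far from the other 4, about as many as chance gives at 1 in 20 groups (2.05 of 41). H19 read 5.46 on wild-type array 3, with the next wild-type value at 6.67. Impact read -0.68 on wild-type array 3, with the next at -0.04. The groups of 3 labelled p21-null arrays are too small for this comparison.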

How the results depend on the processing

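No member passed an adjusted p under 0.05 in limma under any alternative, and the smallest adjusted p was 0.0834 (Tspan32 among the genes given in every array, with array weights). Over all genes 3 passed with normexp correction and 8 with array weights, against 0 otherwise apart from 1 without wild-type array 4. The looser call took 1 member, but 2 with normexp, the deposited table, the probe of smallest p, slide as a fixed block, trend and robust moderation or array weights, 3 with the skeletal muscle mean as a covariate, 0 with the mean of probes, 0 with the liver, neural or erythroid mean as a covariate, and 1 to 3 when single arrays were left out. Over all genes its share was 2.95%, and it ran from 0.25% with the erythroid mean to 5.97% with array weights. Members at an unadjusted p under 0.05 numbered 9, 0 with the liver, neural or erythroid mean and 2 (without labelled p21-null array 1) to 10 when single arrays were left out. The share of all genes moved too. It was 10.1%, with 2.17%, 6.2% and 2.33% for the liver, neural and erythroid means and 7.03% without labelled p21-null array 1. The replicate number as a block gave 5 such members, against 11.6% of all genes, and a median difference of -0.30. Same-numbered samples did not deviate together (correlations of 0.06, -0.08 and -0.07). Members below 0 ranged over 27 to 34. Mesenchyme slopes numbered 7, against 7.25% of all genes. They numbered 11 with normexp, 2 with muscle added, and 6 to 12 (without wild-type array 4) when single arrays were left out. The shares of all genes in those alternatives are not given here, so their counts cannot be weighed. The tubule epithelium mean gave 7, against 5.31% of all genes. Other marker means, tried after seeing the data, gave 1 (erythroid, against 3.52% of all genes), 17 (muscle, against 9.3%) and 2 (liver, share not given). Of 674 alternative differences 25 reversed, with 0.664 as the smallest adjusted p among them; the cause was not tested. With the neural mean Nnat became 0.20, Usp29 0.64, Snrpn 0.84 and Kcnq1ot1 -0.72. With the mesenchyme mean Peg3 became 0.24, Peg10 0.37 and Igf2r 0.36. Slc22a18 became -0.082 (liver) and -0.0049 (erythroid). Dlk1 became 0.29 (mean of probes), 0.71 (smallest p) and 0.013 (slide block), Igf2r 0.015 (median scaling), 0.029 (deposited table), 0.027 (slide block), 0.54 (liver) and 0.50 (erythroid), and Kcnq1ot1 -0.11 (array weights) and -0.65 (without wild-type arrays 3 and 4). With single arrays left out, Dlk1 ran from -0.28 to 0.074, Peg10 from -0.64 to 0.051, Igf2r from -0.33 to 0.28, Kcnq1ot1 from -0.019 to 0.76 and Cdkn1a from -0.50 to 0.076. Usp29, Nap1l5 and Rasgrf1 were near background on some arrays, where their values are not well measured.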
